A study of Saccharomyces cerevisiae with 10 samples.

Results

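The kinetochore and chromosomal passenger genes of budding yeast (Saccharomyces cerevisiae) are described here in strains that lack a subunit of RSC, a chromatin remodeller that slides and ejects nucleosomes and is needed for growth. The set holds 35 of the 6816 loci that the deposited tables list as single genes. Its members were chosen by protein complex, with earlier results of these data known. They are CSE4 and MIF2, the 4 CBF3 genes, CBF1, the 4 COMA genes, CHL4 and IML3, the 4 MIND genes, SPC105, the 4 NDC80 genes, the 10 DAM1 genes and the 3 passenger genes IPL1, SLI15 and BIR1. All strains had the S288C background and came, per the labels, from dissected tetrads of diploids heterozygous for an rsc mutation. Experiment 1 held 6 libraries of polyadenylated RNA from logarithmic cultures in YPD, a rich glucose medium, labelled WT, htl1Δ, npl6Δ, rsc1Δ, rsc2Δ and rtt102Δ, each titled with 10 generations. Experiment 2 held 4 libraries, labelled WT and htl1Δ, of strains carrying GALpr-HTL1, which by its name places HTL1 under a galactose promoter. These cultures were brought to saturation in YPGR, then washed and grown on through 10 generations in fresh YPGR or in YPD. There was 1 library for each strain and medium. Differences therefore have no replicate spread to be set against, no test of strains is possible, and the values describe these libraries.

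The kinetochore is the protein assembly that joins a chromosome to spindle microtubules. In budding yeast it forms on a short defined centromere around a nucleosome that holds the histone H3 variant Cse4. Inner subunits bind this nucleosome and the centromere DNA, the MIND complex bridges to the outer layer, and the NDC80 and DAM1 complexes hold the microtubule. The passenger complex carries the Aurora B kinase Ipl1, which releases attachments that are not under tension. RSC has been studied at yeast centromeres and in chromosome segregation as well as at promoters.

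The libraries held an estimated 9020000 to 11850000 fragments each, and a member was covered by about 45 to 2273 fragments per library, with a median of 256. All 35 members had a row of their own and passed the filter on low values in all 9 tables. In experiment 1 each deleted gene was at or near 0 in its own library, and HTL1 had 2.09 FPKM in htl1Δ against 293 FPKM in WT. In experiment 2 HTL1 was still at 232 FPKM in the YPD library labelled htl1Δ, against 555 FPKM in WT, and at 2780 against 2970 FPKM in YPGR. These libraries are therefore named by their label, and the 2 libraries of YPD, labelled htl1Δ and WT, are called the YPD pair, as are those of YPGR the YPGR pair. WT and npl6Δ of experiment 1 had the STE3 transcript of alpha cells, while htl1Δ, rsc1Δ, rsc2Δ and rtt102Δ had the STE2 transcript of a cells. In experiment 2 the YPD library labelled htl1Δ was an a type and the other 3 libraries were alpha types. All 8 mating type markers checked, 4 for each type, were at least 2-fold different in htl1Δ, rsc1Δ, rsc2Δ, rtt102Δ and that YPD pair, against 3 of 7 measured in npl6Δ and 2 of 8 in the YPGR pair. Strain and mating type therefore cannot be told apart except in npl6Δ and in the YPGR pair, and the part of mating type in the values below was not tested.

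The upstream sequences of 4 members that the results turn on are given first. CSE4 and MIF2 encode the centromeric nucleosome's histone and the protein that binds it, and both had log2 ratios near 0.6 in htl1Δ. NNF1 and NSL1 encode subunits of the same MIND complex, and their ratios pointed in opposite directions in experiment 1. Each window is the 250 bases before the start codon, read 5′ to 3′ on the gene's strand from the RefSeq R64 genome, which is sacCer3. Capitals mark ACGCGT, the MCB element known for G1/S transcription, in the MIF2 window, starting 95 bases before the start codon. They mark GTAAACA, a sequence bound by forkhead factors, in the NNF1 window, starting 63 bases before it. The windows lie at chrXI:346765-347014 on the minus strand for CSE4 and chrXI:273144-273393 on the plus strand for MIF2. Those of NNF1 and NSL1 lie at chrX:636780-637029 and chrXVI:105922-106171, both on the plus strand.
CSE4: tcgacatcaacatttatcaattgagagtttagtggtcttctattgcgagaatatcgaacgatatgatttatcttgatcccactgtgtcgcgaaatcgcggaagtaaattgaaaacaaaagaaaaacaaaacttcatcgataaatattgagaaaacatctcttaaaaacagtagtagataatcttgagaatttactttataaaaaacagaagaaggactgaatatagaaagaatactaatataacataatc
MIF2: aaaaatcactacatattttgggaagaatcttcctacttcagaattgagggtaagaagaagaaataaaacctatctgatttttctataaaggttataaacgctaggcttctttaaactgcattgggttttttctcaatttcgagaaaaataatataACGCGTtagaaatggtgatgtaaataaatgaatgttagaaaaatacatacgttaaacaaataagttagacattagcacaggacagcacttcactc
NNF1: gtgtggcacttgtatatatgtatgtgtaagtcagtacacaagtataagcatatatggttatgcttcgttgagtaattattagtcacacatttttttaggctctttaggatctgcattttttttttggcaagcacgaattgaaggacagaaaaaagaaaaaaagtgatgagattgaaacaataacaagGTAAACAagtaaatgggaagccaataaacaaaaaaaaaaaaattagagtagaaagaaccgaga
NSL1: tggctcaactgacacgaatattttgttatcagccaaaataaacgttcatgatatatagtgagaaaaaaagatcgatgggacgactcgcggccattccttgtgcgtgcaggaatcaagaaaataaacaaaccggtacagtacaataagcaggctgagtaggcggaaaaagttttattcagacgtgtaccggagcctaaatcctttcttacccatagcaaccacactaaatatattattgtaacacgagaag

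Levels are given as FPKM, fragments scaled by library size and by an effective length that is shorter than the gene, so they are per length. In WT of experiment 1 the 35 genes had a median of 35.9 FPKM, against 56.2 FPKM over the 6044 genes measured in the htl1Δ table. The highest were HSK3 at 487 FPKM, SKP1 at 456 FPKM and DAD4 at 417 FPKM. HSK3 and DAD4 encode small DAM1 subunits, and Skp1 also serves in SCF ubiquitin ligases, so its transcript is not one of the kinetochore alone. The lowest were IPL1 at 6.36 FPKM, CTF13 at 9.12 FPKM and MIF2 at 12.1 FPKM. Among the complexes the 3 passenger genes ran from 6.36 to 17.9 FPKM and the 4 NDC80 genes from 19.5 to 43.2 FPKM. The 10 DAM1 genes ran from 32.1 to 487 FPKM, so subunits of a single complex spanned more than the whole passenger and NDC80 range. Shorter genes had higher FPKM, with a Spearman correlation of -0.776 between FPKM and exon length over the 35 genes, given as a description. The effective length falls short of the gene by the largest share in short genes, which raises their FPKM. The part of this scaling in the correlation was not tested. The value of a very short gene rests on few positions: HSK3, with 210 bp of exon, had an effective length of about 36.2 bp and about 164 fragments in WT, against about 1621 fragments for SKP1.

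**Figure D1:**
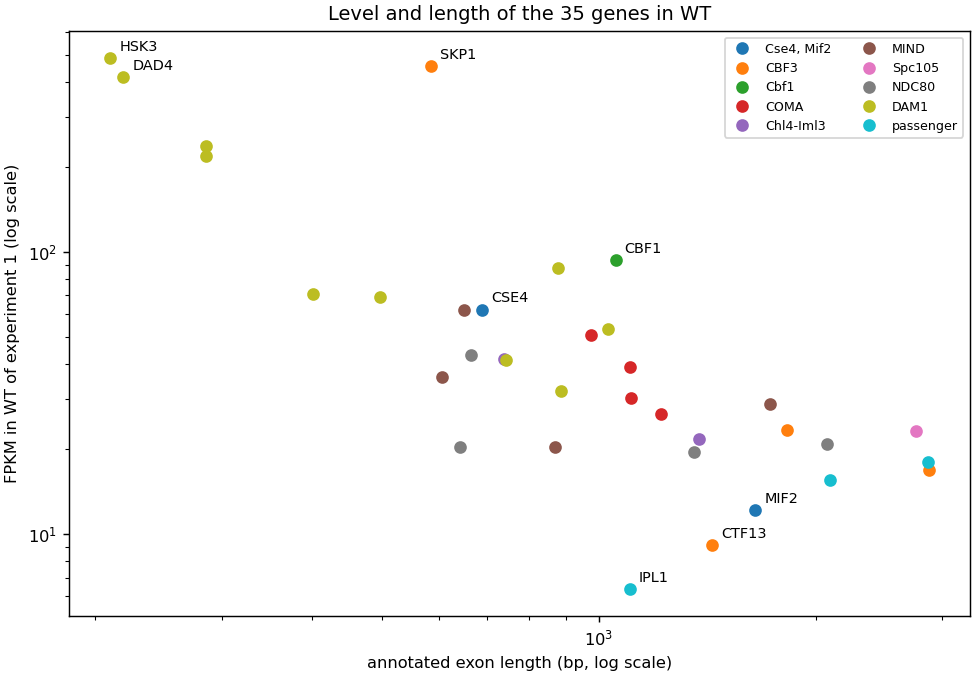
FPKM in the WT library of experiment 1 against annotated exon length for the 35 genes, both on log axes, coloured by complex. HSK3 and DAD4 sit at the short, high end at 487 and 417 FPKM, and IPL1 is lowest at 6.36 FPKM.

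Differences are given as log2 ratios of FPKM + 1 within a table, and a gene is counted as different at 2-fold or more, which is a rule of size. Over the 35 genes and 9 comparisons, 5 of 315 values reached 2-fold, in 4 genes: NNF1 in npl6Δ and rsc2Δ, DAD4 and HSK3 in rsc2Δ, and CTF19 between media in the strain labelled htl1Δ. The other 31 genes stayed within 2-fold in every comparison, and 20 stayed within 1.5-fold. Against WT of experiment 1 no member was 2-fold different in htl1Δ, where 6.75% of all measured genes were, and 1 was in npl6Δ, where 7.85% were. No member was in rsc1Δ, against 4.15% of all genes. In rsc2Δ 3 of the 35 were, against 6.35% of all genes. In rtt102Δ none was, against 2.44%. In experiment 2 no member was 2-fold different within the YPD pair, against 5.84% of all genes, or within the YPGR pair, against 1.68%. The change of medium gave 0 members in WT, against 26.2% of all genes, and 1 in the strain labelled htl1Δ, against 27.0%. At 1.5-fold, a limit added after the values were seen, 5 members were counted in htl1Δ (18.9% of all genes), 6 in npl6Δ (23.2%), 1 in rsc1Δ (11.5%), 6 in rsc2Δ (19.0%) and 0 in rtt102Δ (5.93%). The YPD pair gave 1 (14.6%), the YPGR pair 0 (4.06%), and the change of medium 3 in WT (48.3%) and 5 in the strain labelled htl1Δ (49.8%). The authors' deposited table called no member significant in any comparison, and its lowest p-value for a member was 0.0336, for NNF1 in npl6Δ, with a q-value of 0.873. Of all measured genes the authors' deposited table called 0.529% in htl1Δ, 0.446% in npl6Δ, 0.515% in rsc1Δ, 0.447% in rsc2Δ and 0.501% in rtt102Δ. In experiment 2 the authors' deposited table called 0.691% in the YPD pair, 0.00% in the YPGR pair, and 0.115% and 0.229% between media in the strains labelled WT and htl1Δ.

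**Figure D2:**
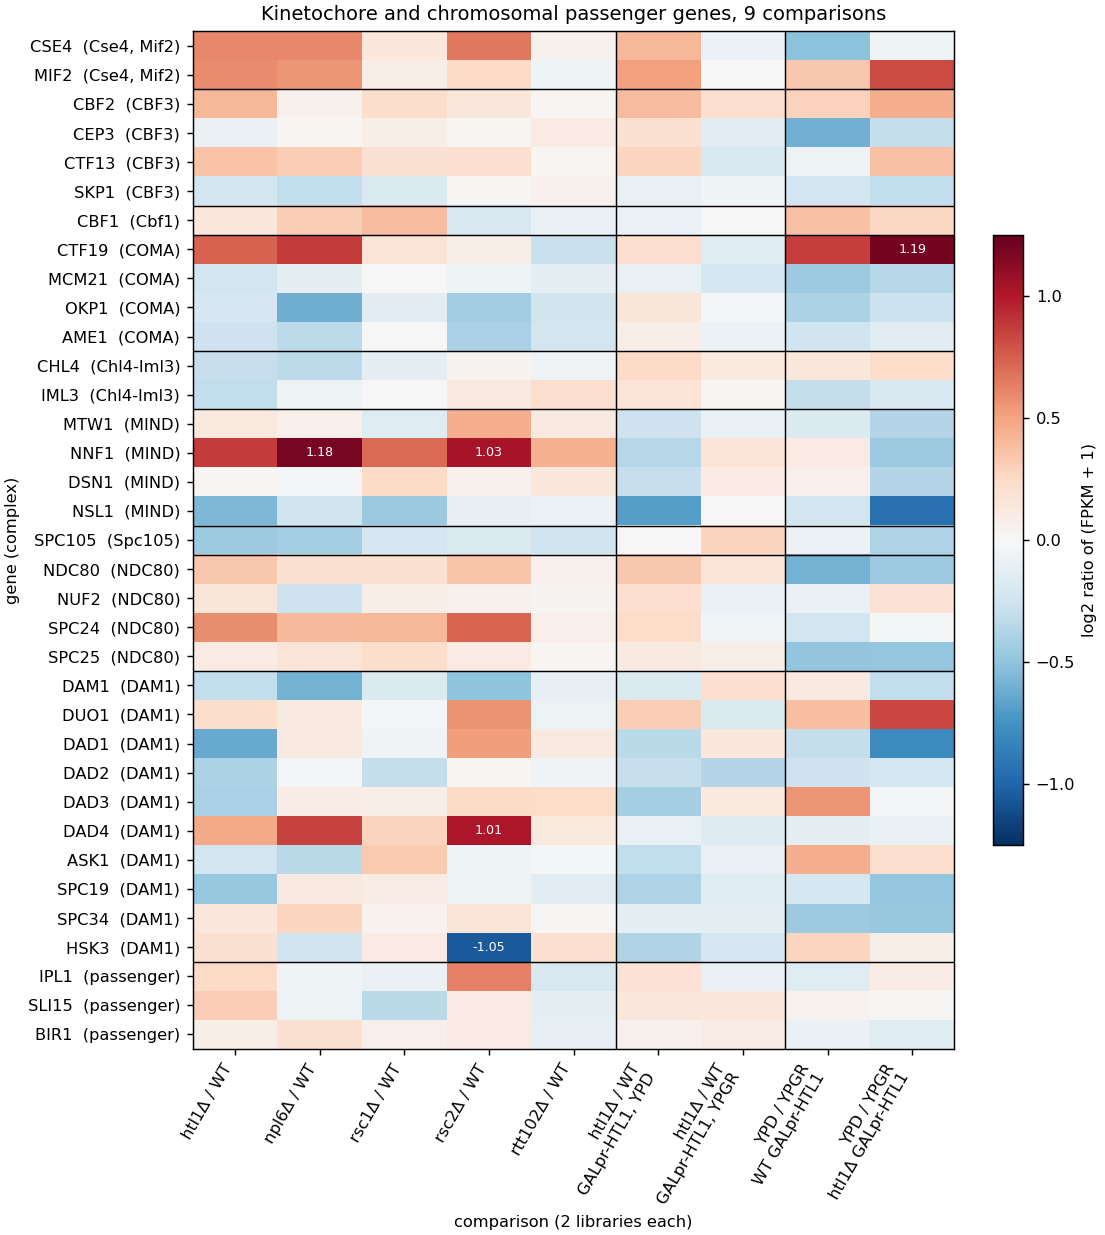
Log2 ratio of FPKM + 1 for the 35 genes (rows, grouped by complex from the centromere outwards) in the 9 comparisons (columns, 2 libraries each). Values of 2-fold or more are printed, and NNF1 holds the largest in npl6Δ at 1.18 and CTF19 the largest between media at 1.19.

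The typical size of a difference among the members was near that of all genes in the deletions of experiment 1, with the widest gap in rsc2Δ, where it was lower. The median absolute log2 ratio of the members was 0.30 in htl1Δ, where all measured genes had 0.27, and 0.25 in npl6Δ, where they had 0.29. It was 0.15 against 0.19 in rsc1Δ, 0.18 against 0.26 in rsc2Δ, and 0.10 against 0.11 in rtt102Δ. Over the 5367 measured genes within the members' range of FPKM the median absolute ratio in htl1Δ was 0.26. Over the 5372 such genes in rsc2Δ it was 0.25. The medians of the signed ratios lay near 0, from 0.02 in rtt102Δ to 0.11 in rsc2Δ, and in htl1Δ 20 of 35 members lay above 0, as did 50.0% of all genes. The members above 0 numbered 19 in npl6Δ (50.5% of all genes), 21 in rsc1Δ (50.5%), 25 in rsc2Δ (50.1%) and 18 in rtt102Δ (50.9%). In experiment 2 they numbered 19 in the YPD pair (48.9%), 14 in the YPGR pair (49.3%), and 13 and 12 between media in the strains labelled WT (50.5%) and htl1Δ (49.7%).

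**Figure D3:**
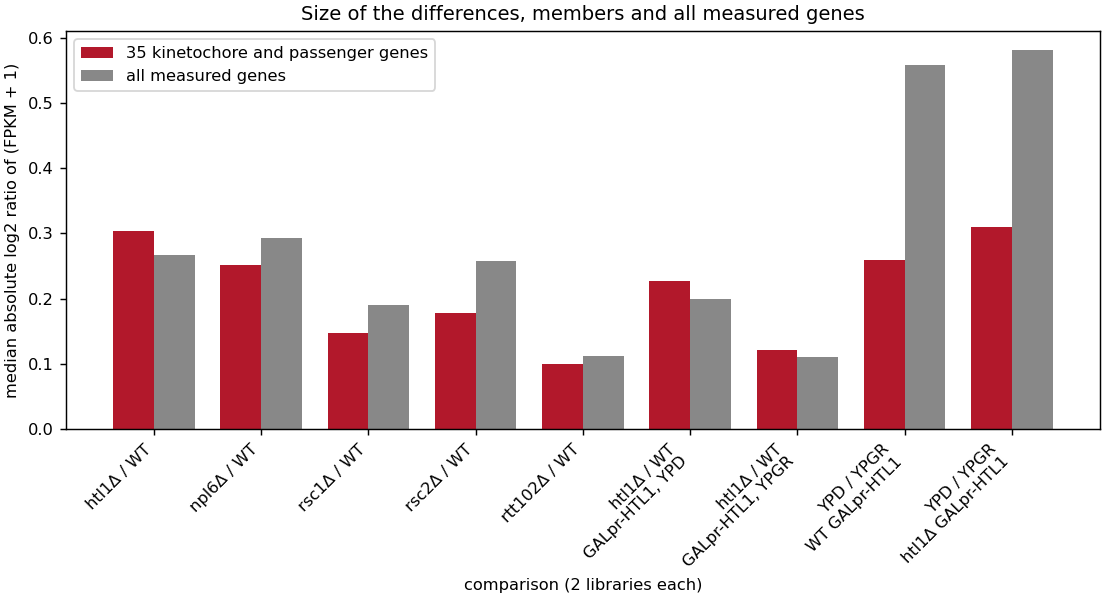
Median absolute log2 ratio of FPKM + 1 in each comparison for the 35 genes (red bars) and for all measured genes (grey bars). In the 7 comparisons of a library labelled as a deletion with WT the bars are furthest apart in rsc2Δ, at 0.18 against 0.26. Between media the red bars are lower, at 0.26 and 0.31 against 0.56 and 0.58.

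At the centromere CSE4 and MIF2 had positive ratios in htl1Δ, npl6Δ and rsc2Δ. CSE4 (YKL049C, chromosome XI, 346075 to 346764, sacCer3), the gene of the centromeric histone, was at 94.9 FPKM in htl1Δ, against 62.4 FPKM in WT, a log2 ratio of 0.60. It had 94.1 FPKM in npl6Δ and 94.3 FPKM in rsc2Δ, with ratios of 0.60 and 0.66, but at 66.5 FPKM in rsc1Δ and 62.6 FPKM in rtt102Δ, with ratios of 0.13 and 0.05. MIF2 (YKL089W, chromosome XI, 273394 to 275043), the CENP-C gene, was at 18.8 FPKM in htl1Δ, against 12.1 FPKM in WT, a ratio of 0.59. Its ratios were 0.56 in npl6Δ, 0.25 in rsc2Δ, 0.08 in rsc1Δ and -0.05 in rtt102Δ. These ratios share the WT library of experiment 1. In experiment 2, which has libraries of its own, CSE4 was at 88.1 FPKM in the YPD library labelled htl1Δ and 65.7 FPKM in WT, a ratio of 0.42. MIF2 was at 19.5 and 13.4 FPKM there, a ratio of 0.51, the highest of the 35 genes in that pair. In the YPGR pair the ratios were -0.08 for CSE4 and 0.01 for MIF2. The YPGR pair differs from the YPD pair in medium, in HTL1 level and in its matched mating type, and these cannot be told apart. The G2/M genes also had positive ratios in htl1Δ, with 14 of 14 above 0 and a median of 0.85. In the YPD pair 13 of 14 were above 0, with a median of 0.54. CDC20, which activates the anaphase-promoting complex, had 1.08 in htl1Δ and 0.63 in the YPD pair, while the mitotic cyclin gene CLB1 had 1.16 and -0.76. The median of the G2/M genes was 0.23 in npl6Δ, 0.17 in rsc2Δ, -0.001 in rsc1Δ and -0.02 in rtt102Δ. The median of the 14 or 15 measured G1/S genes was 0.34 in htl1Δ, 0.42 in npl6Δ and 0.60 in rsc2Δ. It was 0.12 in rsc1Δ, 0.03 in rtt102Δ and 0.39 in the YPD pair. In htl1Δ 12 of 15 G1/S genes lay above 0, where the cohesin gene MCD1 had 0.78 but the cyclin gene CLN1 had -1.11. The part of cell cycle stage in the CSE4 and MIF2 values was not tested.

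The CBF3 genes and CBF1 stayed within 1.5-fold against WT of experiment 1. CBF2, which encodes the largest CBF3 subunit, was at 23.0 FPKM in htl1Δ, against 16.9 FPKM in WT, a ratio of 0.42, and had 0.40 in the YPD pair. CTF13, an F-box subunit of CBF3, had ratios from 0.02 in rtt102Δ to 0.35 in htl1Δ against WT of experiment 1. CEP3, a zinc cluster subunit, stayed between -0.08 and 0.10 there. SKP1 ran from -0.30 in npl6Δ to 0.05 in rtt102Δ, and its range of 0.36 over all 9 comparisons was among the 3 narrowest. CBF1, whose protein binds the first centromere element and also methionine gene promoters, had its highest ratio in rsc1Δ, at 0.39, and its lowest in rsc2Δ, at -0.20.

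Within the COMA complex CTF19 had ratios apart from the other subunits in htl1Δ and npl6Δ. Okp1 and Ame1 are its essential pair, and MCM21, OKP1 and AME1 had ratios of -0.24, -0.21 and -0.26 in htl1Δ. In npl6Δ the same 3 genes had -0.12, -0.61 and -0.32, and in rsc2Δ -0.05, -0.43 and -0.40. The ratio of OKP1 in npl6Δ was the lowest of the 35 genes there, from 16.9 FPKM against 26.4 FPKM in WT. CTF19 (YPL018W) was instead at 51.5 FPKM in htl1Δ, against 30.4 FPKM in WT, a ratio of 0.74, and had 0.87 in npl6Δ. Its ratio was 0.17 in rsc1Δ, 0.07 in rsc2Δ and -0.28 in rtt102Δ, the lowest ratio of the 35 genes there, where MCM21, OKP1 and AME1 had -0.11, -0.25 and -0.23. In the YPD pair CTF19 had 0.21, close to OKP1 at 0.15 and AME1 at 0.08, and the COMA median was 0.11, against -0.22 in htl1Δ of experiment 1. The table places CTF19 in a locus at chromosome XVI, 517651 to 520233, shared with IRC15, a gene for a microtubule-associated protein on the other strand. In RefSeq the coding regions overlap by 27 bp, between CTF19 at 517651 to 518760 and IRC15 at 518734 to 520233. IRC15 had 0.71 in htl1Δ, 0.75 in npl6Δ, 0.09 in rsc1Δ, 0.11 in rsc2Δ and -0.22 in rtt102Δ, but -0.17 in the YPD pair. No source used here says whether the libraries were stranded, so reads from the stretch that CTF19 and IRC15 share cannot be told apart. CHL4 and IML3, whose proteins act with COMA in pericentromeric cohesion, had -0.29 and -0.31 in htl1Δ. In npl6Δ CHL4 had -0.33 and IML3 -0.06. In the YPD pair they had 0.24 and 0.17, the other direction from htl1Δ of experiment 1.

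**Figure D4:**
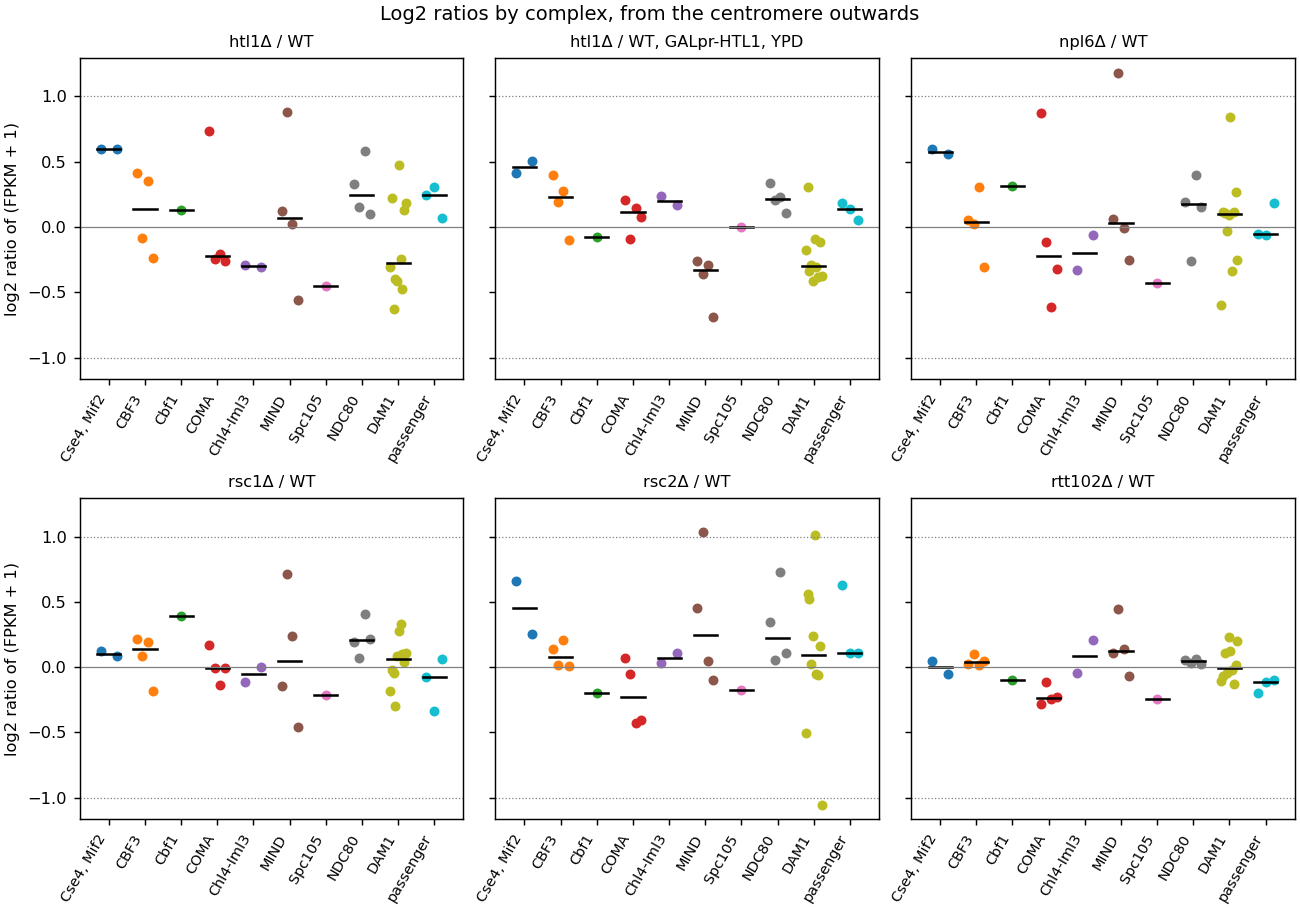
Log2 ratio of FPKM + 1 for each gene (points) and each complex's median (bars) in htl1Δ of experiment 1, in the YPD pair of experiment 2 and in the other deletions against WT. CSE4 and MIF2 sit at 0.60 and 0.59 in htl1Δ, and the DAM1 genes spread from -1.05 to 1.01 in rsc2Δ.

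In the MIND complex NNF1 and NSL1 had ratios of opposite sign in the deletions of experiment 1. NNF1 (YJR112W, chromosome X, 637030 to 637635) had 66.8 FPKM in htl1Δ and 81.8 FPKM in npl6Δ. The rsc1Δ, rsc2Δ and rtt102Δ libraries had 57.8, 70.9 and 47.7 FPKM. In WT it was at 34.2 to 35.9 FPKM, depending on the table's scaling. Its log2 ratios were 0.88, 1.18, 0.71, 1.03 and 0.44, in each case the highest ratio of the 35 genes. All 5 ratios share that WT library, in which NNF1 was covered by about 134 fragments. In the separately scaled tables of experiment 2 NNF1 was at 55.1 to 59.3 FPKM in the WT libraries, so the WT library of experiment 1 had the lowest value of the 10. There the ratio was -0.36 in the YPD pair, with 44.7 against 57.6 FPKM, the opposite direction to experiment 1. It was 0.17 in the YPGR pair.

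NSL1 (YPL233W, chromosome XVI, 106172 to 106822) was lower than in WT in htl1Δ of experiment 1 and in the YPD library labelled htl1Δ of experiment 2. It was at 42.0 FPKM in htl1Δ, against 62.4 FPKM in WT in experiment 1, a ratio of -0.56. In experiment 2 it was at 41.6 and 67.6 FPKM in YPD, a ratio of -0.69, the lowest of the 35 ratios. In YPGR it was at 85.7 and 86.2 FPKM, a ratio of -0.01. Its ratios were -0.25 in npl6Δ, -0.46 in rsc1Δ, again the lowest of the 35 ratios, -0.10 in rsc2Δ and -0.07 in rtt102Δ. The level of NNF1 divided by that of NSL1 within a library, which does not depend on the table's scaling, was 0.574 to 0.576 in WT of experiment 1. It was 1.59 in htl1Δ, 1.58 in npl6Δ, 1.32 in rsc1Δ, 1.28 in rsc2Δ and 0.828 in rtt102Δ. In experiment 2 it was 0.852 in WT and 1.07 in the YPD library labelled htl1Δ, and 0.675 and 0.764 in YPGR. Of the other 2 MIND genes, in the deletions of experiment 1 MTW1 ran from -0.15 in rsc1Δ to 0.45 in rsc2Δ, and DSN1 from -0.01 in npl6Δ to 0.24 in rsc1Δ. In the YPD pair of experiment 2 all 4 MIND genes were below 0, with a median of -0.33.

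**Figure D5:**
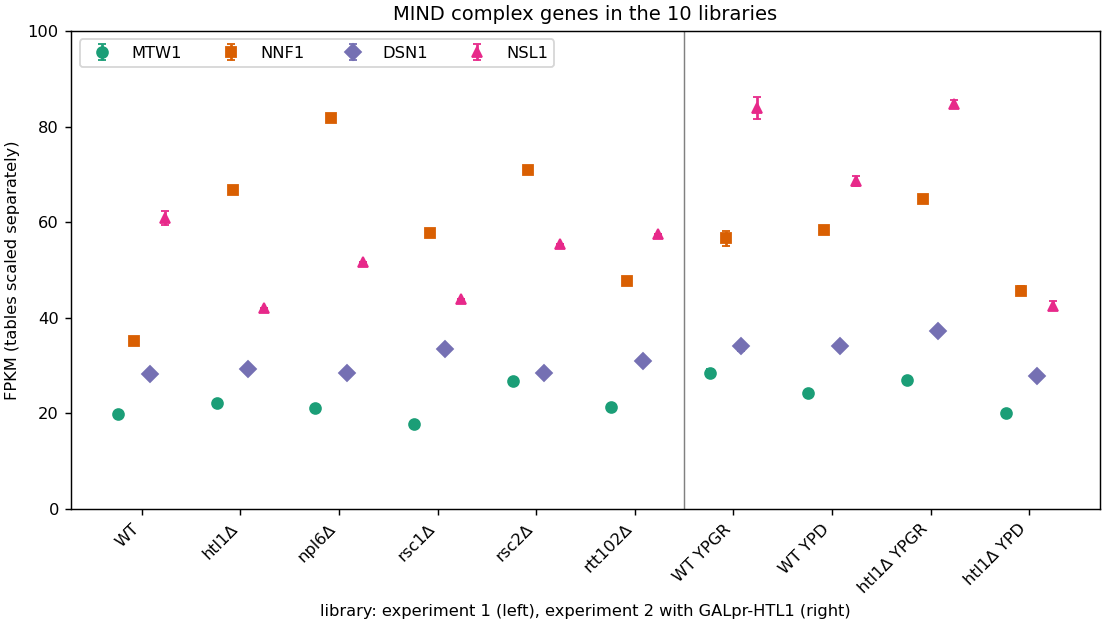
FPKM of the 4 MIND genes in the 10 libraries, experiment 1 left and experiment 2 right. Points are midpoints between a library's lowest and highest values over the tables that hold it, and bars the range that the tables' scaling gives. NNF1 lies below NSL1 in WT of experiment 1, at 34.2 to 35.9 against 59.4 to 62.4 FPKM, and above it in htl1Δ, npl6Δ, rsc1Δ and rsc2Δ.

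At the outer kinetochore 4 of 4 NDC80 genes were above 0 in htl1Δ, rsc1Δ, rsc2Δ and rtt102Δ, with medians of 0.24, 0.20, 0.23 and 0.04, in ratios that share the WT library. In npl6Δ 3 of 4 were, and NUF2 had -0.26. Spc24 and Spc25 form the inner end of this rod and Ndc80 and Nuf2 the end that touches the microtubule. SPC24 was at 31.0 FPKM in htl1Δ, against 20.3 FPKM in WT, a ratio of 0.58, and had 0.40 in npl6Δ, 0.41 in rsc1Δ, 0.73 in rsc2Δ and 0.06 in rtt102Δ. NDC80 had 0.33 in htl1Δ, 0.35 in rsc2Δ and, in the YPD pair of experiment 2, 0.34. In the YPD pair, whose libraries are others, 4 of 4 genes were above 0, with a median of 0.22. SPC105, the gene of the scaffold that recruits checkpoint proteins, was at 16.6 FPKM in htl1Δ, against 23.1 FPKM in WT, a ratio of -0.45. It had -0.43 in npl6Δ, but 0.00 in the YPD pair and 0.28 in the YPGR pair, the highest ratio of the 35 genes there.

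The 10 DAM1 genes encode the ring that slides on microtubules, and their ratios spread most in rsc2Δ. HSK3 (YKL138C-A, chromosome XI, 184803 to 185012) was at 223 FPKM in rsc2Δ, against 464 FPKM in WT, a ratio of -1.05, from about 94 and 164 fragments. In the other 9 libraries it ran from 405 to 592 FPKM over separately scaled tables, so rsc2Δ was lowest. DAD4 (YDR320C-A, locus at chromosome IV, 1108280 to 1108621, shared with YDR320W-B) was at 802 FPKM in rsc2Δ, against 397 FPKM in WT, a ratio of 1.01. Its ratio was 0.85 in npl6Δ and 0.48 in htl1Δ. DUO1 and DAD1 had 0.56 and 0.52 in rsc2Δ, while DAM1 itself had -0.50. In htl1Δ 4 of the 10 genes lay above 0 and their median was -0.27, and DAD1 had the lowest ratio of the 35 genes, -0.63, from 153 FPKM against 238 FPKM in WT. In the YPD pair the median was -0.30 with 1 of 10 above 0, and DAD1 had -0.34. Among the DAM1 genes with loci of 300 bp or more that median was -0.18. In npl6Δ the median of the 10 genes was 0.10 and DAD1 had 0.11. The npl6Δ library differs from htl1Δ in the deleted subunit and in mating type, and the part of either was not tested. The shortest genes of the set are in this complex: HSK3, DAD4, DAD1 and DAD3 have 210 to 285 bp of exon.

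The ratios of the 3 passenger genes of the set stayed between -0.33 and 0.30 in every comparison except that of IPL1 in rsc2Δ. NBL1, a passenger gene outside the set, was 2-fold lower in htl1Δ and npl6Δ and is described below. IPL1 (YPL209C) was at 9.90 FPKM in rsc2Δ, against 6.06 FPKM in WT, a ratio of 0.63. Its WT value rested on about 53 fragments. In htl1Δ it had 0.24, with 0.30 for SLI15, the INCENP gene that activates the kinase, and 0.07 for BIR1, the survivin gene. BIR1 had the narrowest range of all 35 genes over the 9 comparisons, at 0.34, while NNF1 had the widest at 1.64, followed by CTF19 at 1.48 and HSK3 at 1.32.

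The comparison of htl1Δ with WT in experiment 1 and the YPD pair of experiment 2 have no library in common, though the second library labelled htl1Δ held HTL1 at 232 FPKM. Of the 35 genes 22 (62.9%) had the same direction in both, against 59.6% of 6018 measured genes. The Pearson correlation of the ratios was 0.513 over the members and 0.339 over all genes, given as a description. In the YPGR pair the members had a median absolute ratio of 0.12, close to the 0.11 of all genes. The lowest ratio was that of DAD2 at -0.36, with 68.2 FPKM in the library labelled htl1Δ and 88.0 FPKM in WT.

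Between media the ratios of the members were smaller in size than those of all measured genes in these libraries. Here a positive ratio means a higher level in YPD than in YPGR. The median absolute ratio of the members was 0.26 in the strain labelled WT and 0.31 in that labelled htl1Δ, where all measured genes had 0.56 and 0.58. CTF19 had the highest ratio of the members in both. In WT it was at 46.4 FPKM in YPD and 25.0 FPKM in YPGR, a ratio of 0.87, and in the strain labelled htl1Δ at 54.5 and 23.3 FPKM, a ratio of 1.19. IRC15, at the same locus, had 1.14 and 0.86. In WT the ratio of CEP3 was lowest, at -0.60, and all 4 NDC80 genes were below 0, with a median of -0.37. In the strain labelled htl1Δ the ratio of NSL1 was lowest, at -0.94, from 43.4 FPKM in YPD and 83.9 FPKM in YPGR, and all 4 MIND genes were below 0. The 2 libraries labelled htl1Δ also differed in mating type.

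Genes that work beside the kinetochore were read from lists chosen with earlier results of these data known. Of 13 other kinetochore subunits 9 were above 0 in htl1Δ, with a median of 0.20. There 1 was 2-fold higher and 1 was 2-fold lower, against 6.75% of all measured genes in either direction. WIP1, a CENP-W-related subunit, was at 315 FPKM in htl1Δ, against 143 FPKM in WT, a ratio of 1.13. It had 0.37 in the YPD pair, 0.815 in rsc2Δ and 0.44 in rtt102Δ, but -0.32 in npl6Δ and -0.55 in rsc1Δ. NBL1, which encodes the borealin-like passenger subunit, was at 93.3 FPKM in htl1Δ, against 204 FPKM in WT, a ratio of -1.12. The loci of WIP1 and NBL1 have 270 and 289 bp. NBL1 had -0.34 in the YPD pair. In npl6Δ it was at 76.1 and 202 FPKM, a ratio of -1.40, while IPL1, SLI15 and BIR1 had -0.06, -0.06 and 0.19. NKP2, in a locus shared with YLR317W and TAD3, was at 11.8 FPKM in rsc2Δ, against 30.5 FPKM in WT, a ratio of -1.30. Of the 7 spindle checkpoint genes 6 were measured in rsc1Δ and in the YPGR pair. None was 2-fold different between a library labelled as a deletion and WT, where 1.68% to 7.85% of all genes were. Their medians ran from -0.01 to 0.11. SGO1, the shugoshin gene for tension sensing, was at 23.6 FPKM in YPD and 9.72 FPKM in YPGR in WT, a ratio of 1.20. Among 9 microtubule regulators KIP1, a kinesin-5 motor gene, had -1.05 in htl1Δ, at 5.95 against 13.4 FPKM, and -1.07 in npl6Δ. In the YPD pair KIP1 had -0.37.

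Motifs were searched on both strands in the 250 bases before the start codon of each gene. CGCGC, the core of the sequence bound by the RSC subunit Rsc3, was in 8 of 35 windows (22.9%) and in 9.83% of 6001 genes. Its genes were CEP3, MCM21, IML3, SPC24, ASK1, DAD3, DAM1 and SPC34, with a median ratio of -0.24 in htl1Δ, from -0.41 to 0.58, against 0.13 for the 27 others. In npl6Δ these medians were -0.02 and 0.06, in rsc1Δ 0.06 and 0.07, and in rsc2Δ 0.06 and 0.105. They were 0.04 and -0.04 in rtt102Δ, and -0.10 and 0.08 in the YPD pair. ACGCGT, which shares the letters CGCG with the first motif, was in 4 windows (11.4%, against 2.90% of genes), those of MIF2, CTF19, MTW1 and IPL1. Their median was 0.42 in htl1Δ, where the 31 others had 0.02, 0.31 in npl6Δ (others 0.02), 0.00 in rsc1Δ (0.07), 0.35 in rsc2Δ (0.05) and -0.13 in rtt102Δ (0.02). In the YPD pair it was 0.19 (others 0.00). The ratios of these 4 genes ran from 0.12 to 0.74 in htl1Δ and from -0.06 to 0.87 in npl6Δ. GTAAACA was in 6 windows (17.1%, against 5.88%), those of CEP3, OKP1, MTW1, NNF1, SPC24 and IPL1. Their median was 0.18 in htl1Δ, 0.04 in npl6Δ, 0.00 in rsc1Δ, 0.54 in rsc2Δ and 0.08 in rtt102Δ, where the 29 others had 0.07, 0.05, 0.07, 0.07 and -0.02. In the YPD pair it was 0.16 (others 0.00). The ratios of these 6 genes ran from -0.61 to 1.18 in npl6Δ and from -0.43 to 1.03 in rsc2Δ. CACGTG, the Cbf1 site, was in the windows of CBF1 and CHL4 (5.71%, against 2.73%). The windows of CSE4 and NSL1 printed above held none of these letters. A match is a description of sequence and not a binding site shown by these data.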

How the data were processed

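Polyadenylated RNA of 10 libraries was sequenced, and the authors deposited 9 tables, each comparing 2 libraries. The submitters' processing notes name TopHat, Cufflinks, Cuffdiff and the sacCer3 build, and the versions are not stated in the sources used here. The values are FPKM from the authors' Cuffdiff run. That they were scaled within each table was read from a library's values shifting between tables. The deposited log2 fold change was not used. P-values and q-values are the authors' own as deposited and compare libraries, not strains.

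Rows naming several genes (115 of 6931) were left out. A gene counted as measured if its status was OK and either library reached 5 FPKM. Ratios are log2 of FPKM plus a pseudocount of 1, which understates differences of low genes. Ratios were taken within a table, since a library's values shift between tables (WT of experiment 1 by a factor of down to 0.952). Of the members, 5 share a locus with another gene (SKP1, CTF19, MTW1, DAD4 and ASK1), and with the strand of the reads not stated, reads from an overlap cannot be told apart. Fragment numbers were derived from the spacing of low FPKM values with an effective length (fragments of 200 ± 80 bp): 77.8% to 86.8% of low values were whole to within 0.1. These are estimates and carry no interval. Names and sequences came from RefSeq R64, which matched 5859 identifiers.

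Members and lists were chosen with earlier results of these data known. Named were the highest, the lowest and every 2-fold different member per comparison, the 3 widest and narrowest ranges, the 3 highest and lowest levels, and 2-fold different genes of the kinetochore lists; other members were named to describe their complex. The ratio and the 2-fold rule were tested on simulated data. Alternatives were pseudocounts of 0.1 and 10, no filter or 20 FPKM, centring, rows of any status or several genes, loci of 300 bp or more, and the 2-fold rule combined with the authors' call; a 1.5-fold limit and leaving out shared loci were chosen once the values were known. Python 3.11.15, pandas 2.3.3, NumPy 2.4.6, SciPy 1.17.1 and Matplotlib 3.10.9 were used.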

Additional observations from a re-analysis of the deposited data

How the results depend on the processing

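No paired analysis was possible because each strain and medium had 1 library. With no replicates, a value was taken as moved when it shifted by more than 0.1 on the log2 scale, or a count by more than 1.5 times. Pseudocounts, filters and limits cannot change the sign of a gene's ratio, and centring shifted ratios by less than 0.1. The alternative runs therefore do not test the direction of the 2-fold differences. Members counted as 2-fold different in rsc2Δ fell from 3 to 1 with a pseudocount of 10 FPKM, and the 1 between media in the strain labelled htl1Δ to 0 with that pseudocount and without shared loci. Joined with the authors' call, the counts were 0 in npl6Δ, rsc2Δ and between media in the strain labelled htl1Δ. At 1.5-fold they were 5 in htl1Δ, 6 in npl6Δ, 1 in rsc1Δ, 6 in rsc2Δ, 1 in the YPD pair, and 3 and 5 between media in the strains labelled WT and htl1Δ. Among members of at least 20 FPKM the median ratio was -0.0315 in htl1Δ, -0.0895 in the YPD pair and -0.22 between media in WT, against 0.10, 0.05 and -0.12 over all 35, so the first 2 medians changed sign. The gap between the highest and lowest complex medians, 1.05 in htl1Δ, 1.00 in npl6Δ, 0.68 in rsc2Δ, 0.79 in the YPD pair, and 0.73 and 0.79 between media in the strains labelled WT and htl1Δ, was 0.77, 0.74, 0.55, 0.62, 0.63 and 0.58 with a pseudocount of 10. With the 20 FPKM filter it was 0.89 in rsc2Δ and 0.88 between media in WT, and without shared loci 0.86 in rsc2Δ. No filter, a pseudocount of 0.1, centring, rows of any status, rows naming several genes and loci of 300 bp or more moved none of the counts, medians over members or gaps past these limits. Loci of 300 bp or more moved the DAM1 median from -0.30 to -0.18 in the YPD pair and from -0.01 to -0.12 between media in WT. That limit leaves out HSK3, at 210 bp, so the 2-fold count in rsc2Δ then lacks it. It keeps DAD4, whose locus has 342 bp but whose exon has 219 bp. Depth limits the short and low genes most, such as HSK3, IPL1 and SPC24, at about 53 to 164 fragments in WT.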
